A study of Mus musculus with 12 samples.

Results

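The miR-181 family comprises mmu-miR-181a, mmu-miR-181b, mmu-miR-181c and mmu-miR-181d (mmu, for mouse, is left out from here on), and these 4 members, taken by name from the array's annotation, were 4 of the 577 mouse miRNAs measured. The measurements were made on 12 Agilent miRNA arrays hybridised with 100 ng of total RNA each, 3 arrays for each of 4 BALB/c mouse mammary carcinoma lines. The 4T1 line is labelled metastatic, and 4TO7, 168FARN and 67NR are labelled non-metastatic. All 4 lines are given as wild type, of female origin and from a spontaneous mammary tumour, with no treatment named. The study set 4T1 against the other lines to find miRNAs that go with steps of metastasis, but metastatic growth is represented here by 1 line. Nothing states that the 3 arrays of a line came from separate cultures. The p-values below therefore rest on arrays, and the spread between these arrays may be technical.

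miRNAs are short RNAs that guide the silencing machinery to messenger RNAs, mainly through the seed near their 5′ end, and miRNAs with the same seed can share targets. The miR-181 members are made from bicistronic clusters, with miR-181a and miR-181b encoded side by side at a pair of loci and miR-181c and miR-181d at another locus. The family is best known from lymphocyte development, where miR-181a tunes T cell receptor signalling, and in breast cancer cells miR-181a has been reported as a miRNA raised by TGF-beta that promotes metastasis.

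The mature sequences are shown because all 4 members carry one seed while the rest of the sequence, and with it the array's ability to separate them, differs. They were taken from RefSeq (build GRCm38.p6), where all 4 members were matched. Capitals mark the seed, bases 2 to 8 from the 5′ end.
miR-181a: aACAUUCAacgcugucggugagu
miR-181b: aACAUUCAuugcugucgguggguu
miR-181c: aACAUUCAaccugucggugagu
miR-181d: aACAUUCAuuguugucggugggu
Of 1679 distinct mature names in that table, 4 carried this seed, and they were the 4 members. Counted from the 5′ end, miR-181a differed from miR-181b by A9U, C10U and A21G over the 23 bases compared. miR-181b and miR-181d differed by C12U alone over the same 23 bases, and miR-181b has 1 further base at its 3′ end. miR-181c has the sequence of miR-181a without the base at position 11.

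The members lie at 6 loci in that build. miR-181a comes from Mir181a-1 (chr1:137966468-137966490, plus strand) and Mir181a-2 (chr2:38852741-38852763, plus strand), and miR-181b from Mir181b-1 (chr1:137966650-137966673, plus strand) and Mir181b-2 (chr2:38853845-38853868, plus strand). The mature sequences of the paired loci are identical, so the array could not tell chromosome 1 from chromosome 2 as the source of either miRNA. miR-181c (chr8:84178924-84178945, minus strand) and miR-181d (chr8:84178759-84178781, minus strand) each have 1 locus. The Mir181d hairpin (chr8:84178716-84178787, minus strand) is shown with the mature strand in capitals, since miR-181d was the one member read on every array.
Mir181d hairpin: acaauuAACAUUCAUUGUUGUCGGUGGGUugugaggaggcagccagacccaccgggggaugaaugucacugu

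Each member had 2 probes, and the brighter one stands for it below. The probe positions in the files (build mm9), set against the RefSeq mature sequences from their 3′ ends, placed the targets of the brighter probes on the bases given here in capitals.
miR-181a: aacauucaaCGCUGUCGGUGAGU
miR-181b: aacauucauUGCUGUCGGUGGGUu
miR-181c: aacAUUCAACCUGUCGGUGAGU
miR-181d: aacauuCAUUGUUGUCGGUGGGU
The targets were 14, 14, 19 and 17 bases long in this order. The miR-181b target differed from the same stretch of miR-181d at 1 base, and the miR-181d target from miR-181b at 1 base. The other 10 pairings of a target with another member had 2 to 8 mismatches when set together without gaps. For miR-181c these counts include the shift from its missing base, as in the 2 and 5 mismatches between miR-181a and miR-181c. Cross-hybridisation between members, miR-181b and miR-181d included, was not tested.

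A probe is called read on an array where a share of more than 0.5 of its spots was marked well above background. Arrays differed in overall brightness. Their scaling factor, the 75th percentile over 170 probes that every array read, was 889 to 1136 signal units in 4T1, 600 to 671 in 4TO7, 791 to 1213 in 168FARN and 358 to 460 in 67NR. The 3 67NR arrays and 168FARN replicate 1 were on slide 1 and the other 8 on slide 2, so a comparison of 4T1 or 4TO7 with 67NR cannot be told apart from the slide except through that 168FARN array. Scaled values under a floor of 0.0209 (log2 -5.58) were set to it, and in signal units this floor was 18.6 to 23.8 in 4T1, 12.6 to 14.1 in 4TO7, 16.6 to 25.4 in 168FARN and 7.50 to 9.62 in 67NR. All 4 members were near the lower end of the measured range, and their signals below are processed signals before scaling.

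miR-181a was read in 168FARN and 67NR, on 2 of 3 arrays each, and on no array of 4T1 or 4TO7. Its signal was 2.22, 4.47 and 1.35 units on the 4T1 arrays and -2.80, -0.661 and -2.02 on the 4TO7 arrays. It was 24.4, 16.1 and 13.0 on the 168FARN arrays, the last of which was not read, and 19.1, 18.4 and 17.2 on the 67NR arrays, the first of which was not read. The highest 4T1 or 4TO7 array was therefore below the lowest array of 168FARN or 67NR. The mean was 2.68 ± 1.61 in 4T1, -1.83 ± 1.08 in 4TO7, 17.8 ± 5.91 in 168FARN and 18.3 ± 0.962 in 67NR (SD, n = 3 each). The 168FARN and 67NR means lay within their spread of each other before scaling, while after scaling all 3 168FARN arrays were at the floor and 67NR stood at log2 -4.52 ± 0.13.

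miR-181b, the partner of miR-181a in its clusters, was read on 9 arrays. Its signal was 26.2, 23.5 and 16.8 units in 4T1, all read, and 7.61, 9.16 and 17.2 in 4TO7, none read. It was 68.5, 56.4 and 46.3 in 168FARN and 49.6, 37.9 and 35.6 in 67NR, all read. The 168FARN and 67NR arrays were above every 4T1 and 4TO7 array, and they overlapped each other before scaling. The means were 22.2 ± 4.84 in 4T1, 11.3 ± 5.16 in 4TO7, 57.1 ± 11.1 in 168FARN and 41.1 ± 7.51 in 67NR (SD, n = 3 each). On the scaled log2 scale the order from the top was 67NR (-3.37 ± 0.18), 168FARN (-4.09 ± 0.05), 4TO7 (-5.48 ± 0.17) and 4T1 (-5.51 ± 0.11), with the last 2 not distinguishable and close to the floor.

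miR-181c was read on the 3 4T1 arrays and on no other. Its signal was 53.4, 56.7 and 44.1 units in 4T1, 7.40, 7.58 and 9.0 in 4TO7, 6.05, 4.83 and 4.32 in 168FARN and 13.6, 14.3 and 11.8 in 67NR. The lowest 4T1 array was thus above the highest of the other 9. The means were 51.4 ± 6.55 in 4T1, 7.99 ± 0.873 in 4TO7, 5.07 ± 0.891 in 168FARN and 13.2 ± 1.3 in 67NR (SD, n = 3 each).

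miR-181d, encoded beside miR-181c, was read on all 12 arrays and was also brightest in 4T1. Its signal was 125, 124 and 99.2 units in 4T1, 25.3, 28.4 and 32.4 in 4TO7, 20.1, 24.9 and 21.6 in 168FARN and 37.1, 28.1 and 24.6 in 67NR. Before scaling the 4T1 arrays stood apart. The 67NR arrays overlapped those of 4TO7 and of 168FARN, and every 4TO7 array was above every 168FARN array. The means were 116 ± 14.6 in 4T1, 28.7 ± 3.54 in 4TO7, 22.2 ± 2.41 in 168FARN and 29.9 ± 6.45 in 67NR (SD, n = 3 each). On the scaled log2 scale the order was 4T1 (-3.16 ± 0.03), 67NR (-3.83 ± 0.18), 4TO7 (-4.46 ± 0.10) and 168FARN (-5.33 ± 0.21), with 168FARN replicate 1 at the floor.

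**Figure D1:**
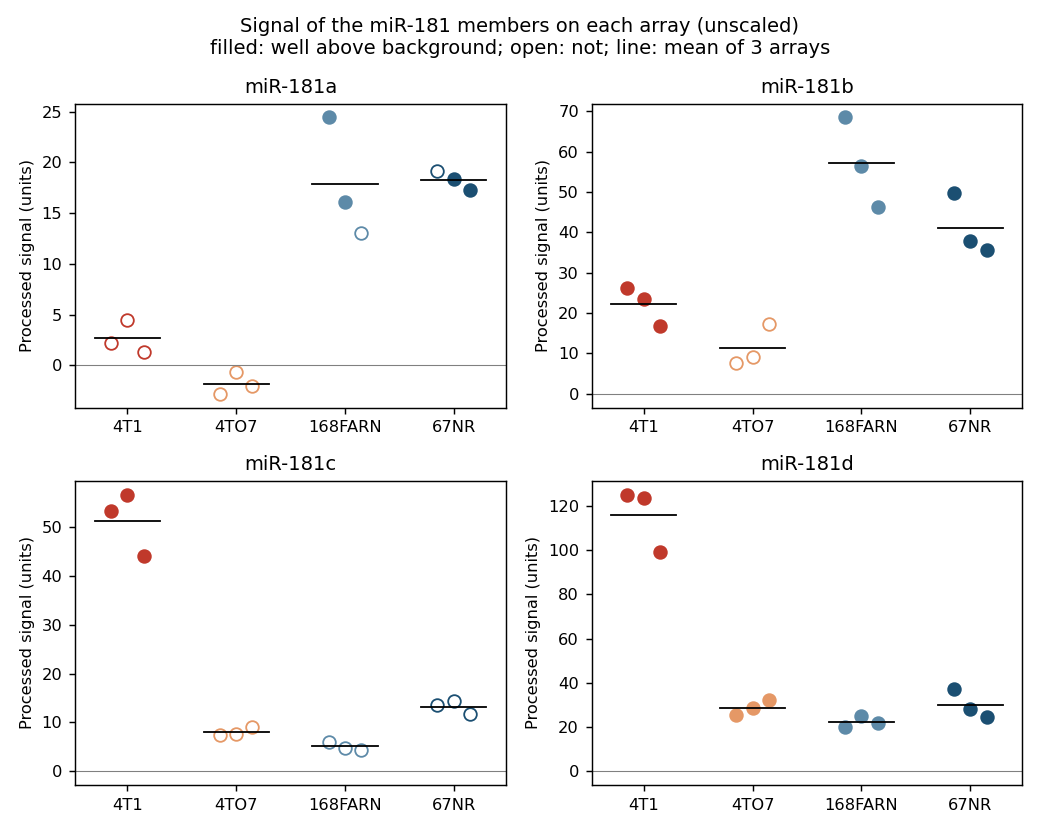
Processed signal (unscaled units) of the brighter probe of each miR-181 member on each of 12 arrays, by line. Points are arrays, filled where the probe was well above background, and bars are means of 3 arrays. miR-181a and miR-181b were brightest in 168FARN and 67NR, and miR-181c and miR-181d in 4T1.

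Lines were compared with limma on the scaled log2 levels of the 224 miRNAs read on all 3 arrays of at least 1 line, with Benjamini-Hochberg adjustment over all 224 in each comparison. Of the 4 members, miR-181b, miR-181c and miR-181d passed this filter, and miR-181a did not. miR-181b and miR-181d differed between the lines by the moderated F test of this fit, with adjusted p of 2.42e-09 for miR-181b and 2.06e-08 for miR-181d. Of all tested miRNAs 96.9% passed that test, close to all of them. miR-181c passed the filter through 4T1 alone, the line where it is high, so it had to differ, and 6 of the 9 other arrays were at the floor with no spread. Its differences are therefore given as descriptions without a p, and its SE is too small.

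When 4T1 was set against the mean of 4TO7, 168FARN and 67NR, miR-181d was called higher and miR-181b lower, and miR-181c had a higher level in 4T1. Among all tested miRNAs 87.5% were called in this comparison, 28.1% higher and 59.4% lower, and their median difference was -0.34 on the log2 scale. miR-181d averaged -3.16 in 4T1 against -4.54 in the other lines, a difference of 1.38 ± 0.09 (SE, limma adjusted p = 5.76e-08), or 2.59-fold higher. miR-181c differed by 1.04 ± 0.03, at least 1.89-fold, since no array of the other lines read it. miR-181b differed by -1.20 ± 0.08 (limma adjusted p = 8.85e-08), with no fold given because 4TO7 did not read it, and its 4T1 arrays overlapped those of 4TO7. In each of these lines 2 of 3 arrays were at the floor for miR-181b, which narrows their spread, so its SE may be too small. Over the 26 or 27 alternative settings the difference of each member kept its sign. The ranges were 0.35 to 2.12 for miR-181d, 0.01 to 1.85 for miR-181c and -1.41 to -0.56 for miR-181b. The value near 0 for miR-181c came from normexp background correction. Without the 67NR arrays the differences were 1.73, 1.24 and -0.73 for miR-181d, miR-181c and miR-181b, and with slide as a term they were 1.21, 1.04 and -1.23.

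Against 4TO7, miR-181d was called higher in 4T1, miR-181c had a higher level and miR-181b gave no call, where 60.7% of tested miRNAs were called, 25% higher and 35.7% lower. The difference was 1.29 ± 0.11 for miR-181d (2.45-fold, limma adjusted p = 1.63e-06) and 1.24 ± 0.04 for miR-181c (at least 2.08-fold). miR-181b was -5.51 in 4T1 and -5.48 in 4TO7, a difference of -0.03 ± 0.10 (limma adjusted p = 0.979). In each of these lines 2 of 3 arrays were at the floor, so this mostly sets floored values against each other. Before scaling its mean was 22.2 units in 4T1, read on 3 arrays, and 11.3 in 4TO7, read on none. miR-181b was called higher without scaling (0.53) and lower after normexp background correction (-0.48). The median over all tested miRNAs moved the same way. It was 0.34 without scaling, with 105 called higher and 7 lower, and -0.46 after normexp, with 26 higher and 167 lower. Over the alternatives the difference was 0.29 to 2.02 for miR-181d and 0.0052, under normexp, to 1.96 for miR-181c. These lines lie on slide 2 together, and on that slide alone the differences were 1.29 for miR-181d, 1.24 for miR-181c and -0.03 for miR-181b.

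Against 168FARN the members moved in opposite directions, where 74.1% of tested miRNAs were called, 34.4% higher and 39.7% lower. miR-181d was 2.17 ± 0.11 higher in 4T1 on the log2 scale (4.49-fold, limma adjusted p = 7.69e-09), the largest of the miR-181d differences. Folds of miR-181d that involve 168FARN rest on 1 of its 3 arrays being set to the floor, and are understated to that extent. miR-181c was 1.24 ± 0.04 higher (at least 2.36-fold). miR-181b differed by -1.42 ± 0.10 (2.67-fold lower in 4T1, limma adjusted p = 1.57e-07), with 2 of the 3 4T1 arrays at the floor. Over the alternatives the sizes ran from 1.00, under normexp, to 2.46 for miR-181d, from 0.24, with a doubled floor, to 2.82 for miR-181c, and from -1.66 to -0.48, with a doubled floor, for miR-181b. On slide 2 alone, which holds 2 of the 168FARN arrays, the differences were 2.04 for miR-181d, 1.24 for miR-181c and -1.45 for miR-181b.

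Against 67NR, miR-181b was called lower and miR-181d higher in 4T1, where 79.5% of tested miRNAs were called, 32.1% higher and 47.3% lower. miR-181b gave its largest difference here, -2.15 ± 0.10 (4.43-fold lower, limma adjusted p = 1.99e-09), with 2 of the 3 4T1 arrays at the floor. It was called under the 26 alternatives run, but its size ran from -2.60 to -0.90, the last without scaling. miR-181c was 0.65 ± 0.04 higher in 4T1 (at least 1.36-fold) and miR-181d 0.67 ± 0.11 higher (1.59-fold, limma adjusted p = 0.000172), but both changed sign under normexp background correction, to -0.63 and -0.24. Under that correction the median over all tested miRNAs was -1.08, with 39 called higher and 169 lower. With slide as a term the difference was 0.30 for miR-181d (limma adjusted p = 0.101), 0.65 for miR-181c and -2.23 for miR-181b.

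Among the non-metastatic lines, 4TO7 had less miR-181b than 168FARN and 67NR, with 2 of the 3 4TO7 arrays at the floor. Against 168FARN its difference was -1.39 ± 0.10 (at least 2.34-fold lower, limma adjusted p = 1.95e-07), where 74.6% of tested miRNAs were called, 39.3% lower and 35.3% higher in 4TO7, but after normexp it was -0.11 and not called. Against 67NR it was -2.11 ± 0.10 (at least 3.87-fold lower, limma adjusted p = 2.23e-09), where 79.9% were called, 48.2% lower and 31.7% higher. For miR-181d, 4TO7 was 0.87 ± 0.11 above 168FARN (1.83-fold, limma adjusted p = 2.39e-05) and differed from 67NR by -0.63 ± 0.11 (1.55-fold lower, limma adjusted p = 0.000256). Over the alternatives miR-181b ran from -1.90 to -0.11 against 168FARN and from -2.62 to -0.99 against 67NR. The miR-181d calls were lost without scaling, which gave 0.37 against 168FARN and -0.05 against 67NR. With slide as a term the miR-181d differences were 0.75 against 168FARN and -1.0 against 67NR, and those of miR-181b were -1.41 and -2.19.

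In 168FARN against 67NR, miR-181d and miR-181b were both lower, where 87.9% of tested miRNAs were called, 40.2% higher and 47.8% lower. miR-181d differed by -1.5 ± 0.11 (2.83-fold lower in 168FARN, limma adjusted p = 1.17e-07). miR-181b differed by -0.73 ± 0.10 (1.66-fold lower, limma adjusted p = 3.67e-05), but without scaling it turned to 0.47 in favour of 168FARN. Without scaling the median over all tested miRNAs was 0.35 there. The miR-181d difference ran from -1.75 to -0.41 over the alternatives. On slide 1 alone, with 1 168FARN array against 3 67NR arrays, the differences were -1.75 for miR-181d and -0.78 for miR-181b. For miR-181c no array of 4TO7, 168FARN or 67NR was read, so these 3 lines were not compared.

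**Figure D2:**
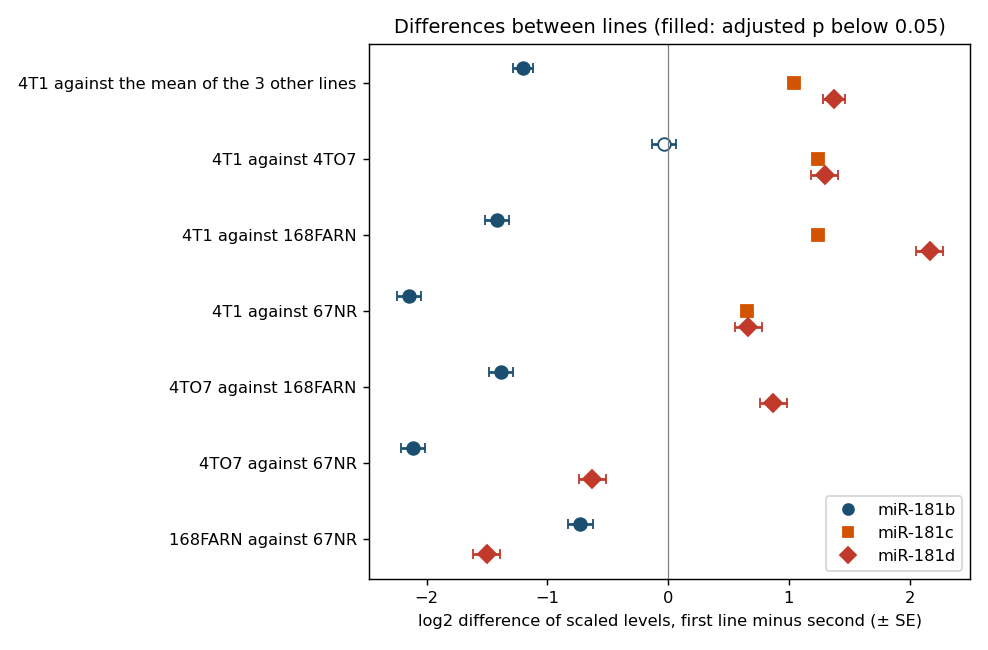
Differences in scaled log2 level (first line minus second, ± SE from limma) for the 3 tested members in 7 comparisons. Points are filled where the adjusted p was below 0.05, and comparisons of miR-181c between lines that did not read it are left out. The filled miR-181c points are descriptions and not calls, since the filter fixed their outcome and its SE is too small. miR-181c and miR-181d lie right of 0 in all 4 comparisons of 4T1 and miR-181b lies left of 0, except for a difference near 0 against 4TO7; against 67NR, miR-181c and miR-181d turned negative under normexp background correction, and miR-181b in 168FARN against 67NR turned positive without scaling.

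miR-181a entered the fit when miRNAs read on at least 1 array were tested, which raised the number tested to 252. After scaling, all 9 arrays of 4T1, 4TO7 and 168FARN were at the floor with no spread, and each of these lines differed from 67NR by the same -1.06 on the log2 scale. 168FARN thus gave the same difference as 4T1 and 4TO7, although its unscaled mean of 17.8 units was close to the 18.3 of 67NR. No p is given, because miR-181a entered through the lines where it is high and the floored arrays leave no spread to test against. The lower scaling factor and floor of the 67NR arrays move with this difference, and their part in it was not tested.

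The ratio of miR-181d to miR-181b on one array needs no scaling between arrays, and differences in this ratio between lines show unequal change of the 2 members. It could be tested for 1 of the 6 pairs of members, over the lines that read both members on all arrays, which were 4T1, 168FARN and 67NR. The log2 ratio was 2.25, 2.40 and 2.56 on the 4T1 arrays, -1.76, -1.18 and -1.10 on the 168FARN arrays, and -0.42, -0.43 and -0.53 on the 67NR arrays. The 4T1 arrays lay above the 6 others. The mean was 2.40 ± 0.15 in 4T1, -1.35 ± 0.36 in 168FARN and -0.46 ± 0.06 in 67NR (SD, n = 3 each). Over the 6 others it was -0.91 ± 0.54 (SD, n = 6), which mixes the spread of arrays with the difference between these lines. The difference was 3.31 or 9.91-fold (exact two-sided permutation test over arrays, p = 0.0238, the smallest that the 84 splits allow). This test treats arrays of different lines as exchangeable, so its p does not measure the spread within a line. With 1 pair tested the adjusted p is the same. In 4TO7 no array read miR-181b, so its ratio was not tested. Taken from those unread signals it was 1.73, 1.63 and 0.91, above every 168FARN and 67NR array and below every 4T1 array. After normexp background correction the difference of 4T1 from 168FARN and 67NR was 1.41, also at p = 0.0238 by the exact permutation test.

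**Figure D3:**
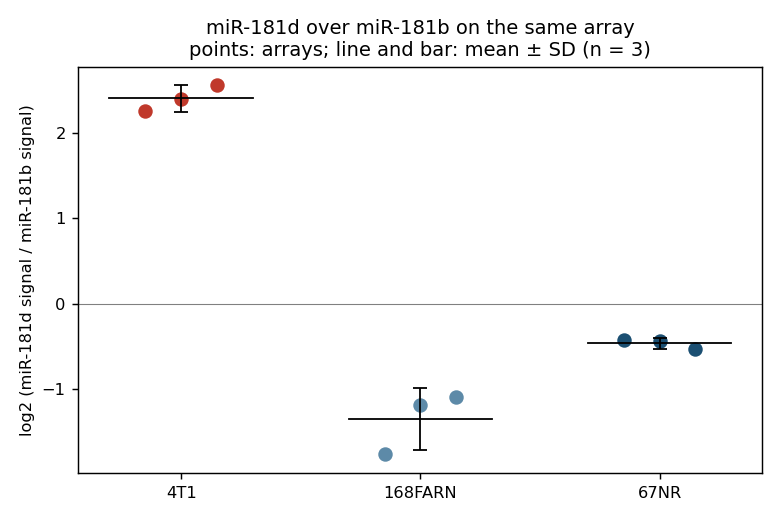
log2 ratio of the miR-181d signal to the miR-181b signal on each array, by line, with the mean ± SD of 3 arrays. The 4T1 arrays lie between 2.25 and 2.56, and the 168FARN and 67NR arrays below 0. 4TO7, where no array read miR-181b, is left out.

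On the dimmer probes before scaling, 4T1 was again the brightest line for miR-181c and miR-181d, and 168FARN and 67NR the brightest for miR-181b. These probes were read on 3 4T1 arrays and no others for miR-181c, and on 3 4T1, 1 4TO7, 1 168FARN and no 67NR arrays for miR-181d. For miR-181b they were read on 1 4T1, no 4TO7, 3 168FARN and 3 67NR arrays. For miR-181b it averaged 11.4 ± 3.83 units in 4T1, 6.88 ± 1.64 in 4TO7, 32.0 ± 1.75 in 168FARN and 20.2 ± 3.84 in 67NR (SD, n = 3 each). For miR-181d it averaged 49.7 ± 8.99 in 4T1, 17.3 ± 3.43 in 4TO7, 14.1 ± 3.21 in 168FARN and 13.5 ± 5.42 in 67NR. For miR-181c the dimmer probe averaged 20.1 ± 2.22 in 4T1 and between 1.53 and 3.64 in the other lines. After scaling this miR-181c probe was at the floor on every array, 4T1 included, so it gave no difference between lines on the log2 scale. The dimmer probe of miR-181a was read on no array, with means between -3.44 and 4.20, and gives no order of lines.

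**Figure D4:**
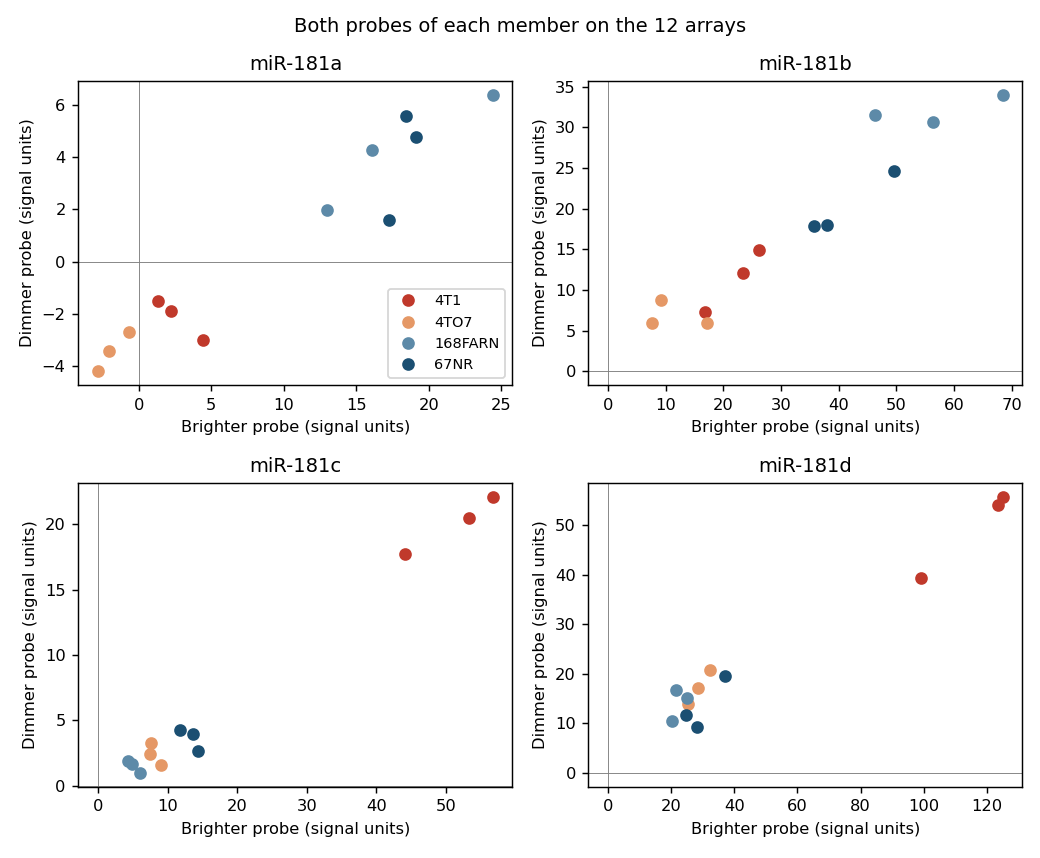
Signal of the dimmer probe (vertical, units) against the brighter probe (horizontal, units) of each member on 12 arrays, coloured by line. For miR-181c and miR-181d the 3 4T1 arrays stand apart on both probes, and for miR-181a and miR-181b the 168FARN and 67NR arrays are the brightest on the brighter probe. The dimmer miR-181a probe was read on no array.

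Over the 12 arrays, scaled log2 levels were most alike within the genomic pairs of the members. Pearson's r was 0.90 between miR-181c and miR-181d and 0.77 between miR-181a and miR-181b. Across the pairs it was 0.26 for miR-181a with miR-181d and 0.15 for miR-181a with miR-181c. For miR-181b it was -0.27 with miR-181d and -0.21 with miR-181c. miR-181a was at the floor on every array but those of 67NR, so its r values set 67NR against the rest. All these r values are descriptions of 12 arrays from 4 lines, many of them at the floor, and members of one array share its scaling. Outside the family, the tested miRNAs most like miR-181b by this measure were miR-342-3p (r = 0.99), miR-34a (0.96) and miR-10a (0.96). Those most like miR-181d were miR-301a (0.94), miR-132 (0.91) and miR-338-3p (0.83). miR-342-3p and miR-10a, like miR-181b, were read on all arrays of 168FARN and 67NR and on none of 4TO7, and unlike it on none of 4T1. miR-301a was read on all 12 arrays, with mean scaled log2 levels of -0.28 in 4T1, -1.04 in 4TO7, -1.24 in 168FARN and -0.43 in 67NR, the same order of lines as miR-181d with 4T1 highest. For miR-181d, miR-181c ranked 3 among the tested miRNAs, whereas for miR-181b, miR-181c ranked 146 and miR-181d 151.

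The array also held the passenger strands of the miR-181a hairpins, the strands opposite the mature miRNA. miR-181a-1*, from the chromosome 1 locus, averaged 1.68 units in 4T1, 1.44 in 4TO7, 8.29 in 168FARN and 9.09 in 67NR. miR-181a-2*, from the chromosome 2 locus, averaged 4.01 in 4T1, -0.255 in 4TO7, 0.695 in 168FARN and 1.78 in 67NR. Neither was read on any array, so which locus gave the miR-181a signal could not be told from them.

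In the files' mm9 coordinates miR-181c and miR-181d lie 165 bases apart, and within 100 kb of them lie miR-23a, miR-27a, miR-27a* and miR-24-2*, 29642 to 30085 bases away, and miR-709, 92584 to 92749 bases away. The neighbours miR-23a, miR-27a and miR-24 form a cluster of abundant miRNAs. miR-23a averaged 1978 ± 179 units in 4T1, 1798 ± 132 in 4TO7, 2753 ± 714 in 168FARN and 128 ± 12.1 in 67NR (SD, n = 3 each). miR-27a averaged 1845 ± 247 in 4T1, 1761 ± 142 in 4TO7, 2699 ± 579 in 168FARN and 153 ± 21.1 in 67NR. Of these 5, miR-27a* was not tested, and miR-23a, miR-27a, miR-24-2* and miR-709 were each called higher in 4T1 than in the other lines averaged (28.1% of all tested miRNAs were), with a median difference of 0.42 against -0.34 over all tested miRNAs. Under normexp background correction 3 of the 4 were called higher and 1 lower, where 38 of all tested miRNAs were called higher and 159 lower.

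By single line, the neighbours went the same way as miR-181c and miR-181d against 67NR and not against 168FARN. Against 67NR all 4 were higher in 4T1, where 32.1% of all tested miRNAs were, with a median of 2.47. Under normexp 3 were higher and 1 lower, where 39 of all tested miRNAs were higher and 169 lower. Against 4TO7 none was higher and 4 were lower (median -0.62), where 35.7% of all tested miRNAs were lower, whereas miR-181c and miR-181d were higher. Without scaling none of the 4 was called higher or lower and their median was 0.10. Of all tested miRNAs 105 were then higher and 7 lower, with a median of 0.34. Against 168FARN none was higher and 4 were lower (median -0.60), where 39.7% of all tested miRNAs were lower. Without scaling 3 were lower, where 69 of all tested miRNAs were higher and 75 lower. After quantile normalization 1 was higher and 3 lower, where 94 of all tested miRNAs were higher and 79 lower. miR-24, which has a second locus elsewhere and was not placed here by the files, averaged 1996 ± 215 units in 4T1, 1145 ± 77.4 in 4TO7, 1636 ± 378 in 168FARN and 206 ± 27.8 in 67NR.

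**Figure D5:**
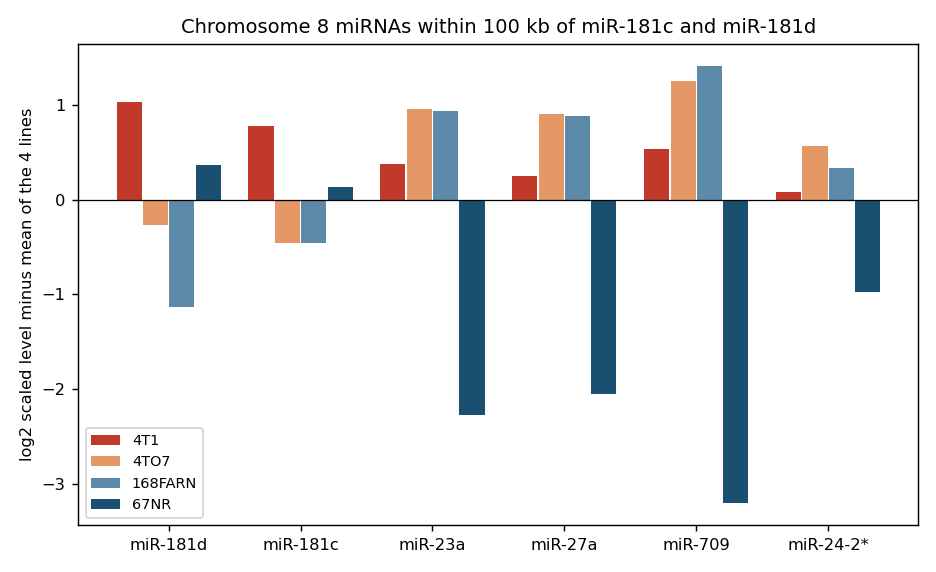
Mean scaled log2 level of each line minus the mean of the 4 lines, for miR-181d, miR-181c and the 4 tested miRNAs within 100 kb of them on chromosome 8, at the main scaling. Bars start at 0; miR-181c was at the floor in 4TO7 and 168FARN and not read in 67NR. miR-181c and miR-181d are highest in 4T1, and the 4 neighbours are lowest in 67NR.

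Because miR-181a is one of the miRNAs reported to be raised by TGF-beta signalling, other miRNAs with such reports were listed. Of 11 on the array 9 were tested, and for 4T1 against the other lines averaged, 7 were higher and 1 lower (28.1% and 59.4% of all tested miRNAs), with a median difference of 0.50 against -0.34 over all tested miRNAs. By adjusted p the first 4 were miR-155, miR-192, miR-182 and miR-21. The difference was 2.28 ± 0.05 for miR-155 (limma adjusted p = 2.81e-12), 1.41 ± 0.05 for miR-182 (limma adjusted p = 1.24e-10) and 1.52 ± 0.05 for miR-21 (limma adjusted p = 1.3e-10). It was -0.97 for miR-192, the 1 lower miRNA of the list. miR-192 passed the filter through 67NR alone, where it is high, so it had to differ from 67NR and no p is given. In 4T1, 4TO7 and 168FARN alike it was at the floor, so 4T1 did not differ from the other unread lines. miR-155 and miR-182 were read in every line but 67NR. Signals of miR-21, an abundant miRNA of many tumours, averaged 20098 ± 2485 units in 4T1, 9025 ± 918 in 4TO7, 18482 ± 3975 in 168FARN and 475 ± 82.5 in 67NR (SD, n = 3 each). Against 67NR 7 of the 9 were higher and 2 lower in 4T1, where 32.1% of all tested miRNAs were higher and 47.3% lower. Against 168FARN 4 were higher and 3 lower (34.4% and 39.7% of all tested). Against 4TO7 3 were higher and 4 lower (25% and 35.7% of all tested). Without scaling 4 were higher and 0 lower, where 105 of all tested miRNAs were higher and 7 lower. The median was then 0.27 for the list and 0.34 over all tested miRNAs. miR-181a and miR-181b had their highest scaled level in 67NR. Before scaling, the mean signal of miR-181b was higher in 168FARN, and that of miR-181a was 17.8 units in 168FARN and 18.3 in 67NR. The part of TGF-beta signalling in these differences was not tested.

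Blood cells are a source of miR-181a, so markers of other cell types were read beside it. Of 6 haematopoietic miRNAs, miR-142-3p was tested, and it was read in 168FARN, at 37.8 ± 9.27 units, with 2.12 in 4T1, 1.40 in 4TO7 and 2.34 in 67NR, where it was not read. The other 5, miR-142-5p, miR-223, miR-150, miR-451 and miR-144, were not tested, and their line means were at most 9.50 units. The endothelial miR-126-3p averaged 41.6 ± 4.13 in 4T1, 23.5 ± 2.83 in 4TO7, 2.26 ± 0.848 in 168FARN, where it was not read, and 108 ± 14.5 in 67NR. Its strand partner miR-126-5p, also listed as endothelial, was read on no array, with line means of 2.18 to 10.3 units. Of the 5 epithelial miR-200 family miRNAs none was tested, and miR-200c and miR-141 were read in 67NR on 1 of 3 arrays each, at line means of 13.5 and 16.0 units. The part of these cells or markers in the miR-181 differences was not tested. In RNA from whole cultures, fewer cells that express a miRNA and less of it per cell cannot be told apart.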

How the data were processed

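Total RNA from 4 lines (3 arrays each) had been extracted with Trizol, per the labels' protocols. The authors' run of Agilent Feature Extraction 10.2.1.3 made the deposited intensity values (processed signals), subtracting a background and leaving arrays unscaled, per the file headers. The deposited value table equals them (largest difference 0). An array has 12493 spots, with 1712 probes of 577 miRNAs beside the controls. Control spots and 284 to 508 outlier spots per array were left out, no spot was saturated, and the spots of a probe were averaged. Values were scaled to the array's 75th percentile among the 170 probes read on all 12 arrays, floored and put on the log2 scale. The brightest probe stood for a miRNA. Within a line, arrays correlated at r = 0.993 to 1.00. limma 3.58.1 in R 4.3.3 fitted the 4 lines (8 residual degrees of freedom) and called differences at a two-sided adjusted p below 0.05. The fit was tested on simulated data. The number of arrays limits the precision.

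Where no array of the lower line read a member, a fold is a lower bound, taken against the lowest level read on each of those arrays or the member's own floored level where higher. Beside the members, the miRNAs named were the miR-181a passenger strands, miRNAs within 100 kb, the miR-23a cluster, the first 4 called of the TGF-beta list, and the 3 most correlated with each member read in at least 3 lines. Signals of miR-23a, miR-24 and miR-27a count in more than 1 list. The members, lists and tests were chosen with earlier results of these data known. Alternatives changed the scaling, background correction, probe summary, filter, floor, slide, pairing, arrays, variance model and outlier spots. Replicate numbers did not pair arrays across lines: of 18 correlations between same-numbered arrays' deviations from their line means, 6 exceeded 0.1 (range -0.80 to 0.56). Figures and sequences were handled in Python 3.11.15.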

Additional observations from a re-analysis of the deposited data

How the results depend on the processing

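Of 505 alternative values for the miR-181 results, 480 kept their direction and side of the threshold. Another 5 changed sign with neither value called (all miR-181b in 4T1 against 4TO7), 15 lost the call, 1 gained it and 4 reversed. The miR-181c values are among these, but the filter had set its side of the threshold, so they are no support for it. After normexp background correction, whose offset of 50 units exceeds most member signals, miR-181c fell to 0.014 in 4T1 against the mean and to 0.0052 against 4TO7. It reversed to -0.63 against 67NR, where miR-181d reversed to -0.24 (limma adjusted p = 0.0672). miR-181b gave -0.48 in 4T1 against 4TO7 (0.000449), a gained call, and -0.11 in 4TO7 against 168FARN (0.299). Without scaling, miR-181b reversed to 0.53 in 4T1 against 4TO7 (0.0257) and to 0.47 in 168FARN against 67NR (0.0296), and miR-181d gave 0.37 in 4TO7 against 168FARN (0.0534) and -0.048 in 4TO7 against 67NR (0.923). With the 75th percentile of all probes, miR-181d gave -0.20 in 4TO7 against 67NR (0.0897) and miR-181b -0.25 in 168FARN against 67NR (0.0609), and quantile normalization gave -0.084 for miR-181d in 4TO7 against 67NR (0.453). miR-181d in 4T1 against 67NR was 0.23 with the total gene signal (0.325) and 0.30 with slide as a term (0.101), and a doubled floor gave 0.12 for it in 4TO7 against 168FARN (0.273). For the 4 reversed values and the gained call, the median over all tested miRNAs moved the same way. Under normexp it was -0.46 in 4T1 against 4TO7 and -1.08 in 4T1 against 67NR. Without scaling it was 0.34 in 4T1 against 4TO7 and 0.35 in 168FARN against 67NR. The causes were not tested.

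Testing the miRNAs read on all 12 arrays, fewer by construction, left 82 calls in 4T1 against the mean, 70 against 4TO7, 78 against 168FARN and 87 against 67NR, and 75 in 4TO7 against 168FARN, 86 in 4TO7 against 67NR and 91 in 168FARN against 67NR. The main counts were 196, 136, 166, 178, 167, 179 and 197 in this order. For 4T1 against the mean, the main split was 63 higher and 133 lower with a median of -0.34. It was 93 and 98 with the percentile of all probes (median -0.04), 111 and 66 without scaling (0.28), 88 and 107 after quantile normalization (-0.14) and 38 and 159 after normexp (-0.55). The replicate block changed no call of miR-181b or miR-181d, giving -1.20 for miR-181b, 1.04 for miR-181c and 1.38 for miR-181d in 4T1 against the mean. Leaving out each array in turn changed no limma call of miR-181b or miR-181d. The miR-181d to miR-181b ratio difference ranged from 3.14 to 3.41 with an array left out. Without any 1 of the 4T1 arrays its exact permutation p was 0.0714, the smallest possible there. On slide 2 alone, an alternative chosen after seeing the data, it was 3.54 (exact permutation p = 0.2, the smallest possible with 3 arrays against 2). Values at the floor limit what can be said of miR-181a and miR-181c.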
